A study of Ovis aries with 8 samples.

Results

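*POMC*, *PCSK1* and *ASIP*, genes of the melanocortin system, were measured in the hypothalamus of 8 late-gestation sheep fetuses. They were picked by name on a 1-colour Agilent sheep expression array, which held 2 probes for *POMC*, 1 for *PCSK1* and 2 for *ASIP*, so 5 of its 15008 probes and 3 of the 965 genes it names. The *PCSK1* probe carries the convertase's older name, PC1, in the array design. Of the 8 fetuses, from 4 twin sets, 4 had estradiol-3-sulfate delivered into the lateral cerebral ventricle by an implanted osmotic mini-pump at 1 mg per day, and their 4 co-twins formed the vehicle group. The labels describe those controls in one place as untreated and in another as given saline, and the infusion as lasting 7 to 12 or 7 to 10 days. All fetuses carried catheters, had surgery at 120 to 127 days of gestation and were sampled at 130 to 134 days, and the RNA had been stored for 7 years. Exact age and days of infusion per fetus are not given in the sources used here. Each array holds 1 whole hypothalamus, in which fewer cells of a type and less RNA per cell cannot be told apart.

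*POMC* encodes pro-opiomelanocortin, a precursor made by neurons of the arcuate nucleus and by the anterior and intermediate pituitary. *PCSK1* encodes prohormone convertase 1/3, which makes the first cuts in that precursor and releases ACTH and β-lipotropin, the source of β-endorphin. In arcuate neurons further cuts give α-MSH, which activates melanocortin receptors MC3R and MC4R and restrains feeding. *ASIP* encodes agouti signalling protein, which blocks MC1R in hair follicles and shifts pigment from black-brown to yellow-red. In mice that make agouti protein in every tissue, it also blocks MC4R in the brain and causes obesity. In white sheep breeds *ASIP* lies in a tandem duplication, and the breed here is not given in the sources used. A probe cannot tell the copies apart. In the RefSeq sheep gene order, *ASIP* lies between *EIF2S2* and *AHCY*, *POMC* between *EFR3B* and *DNMT3A*, and *PCSK1* between *ELL2* and *CAST*. Positions on chromosomes are not used here, because the array design names no genome build.

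The probe sequences are shown because they decide how far the readings of 1 gene are independent. Each is 60 bases long and is written as in the array design, 5′ to 3′. In the *POMC* pair, a capital marks the 1 base that the other probe lacks.
*POMC* A_70_P039552: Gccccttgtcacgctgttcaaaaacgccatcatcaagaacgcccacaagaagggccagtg
*POMC* A_70_P039551: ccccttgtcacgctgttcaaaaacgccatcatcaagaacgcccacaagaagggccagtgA
*PCSK1* A_70_P041281: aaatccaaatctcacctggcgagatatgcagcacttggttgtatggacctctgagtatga
*ASIP* A_70_P027462: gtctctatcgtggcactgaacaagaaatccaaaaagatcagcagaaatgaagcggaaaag
The *POMC* probes start at bases 731 and 732 of the design transcript and share 59 of 60 bases, so they are 2 readings of 1 site and not independent evidence. Probe A_70_P039551 ends in a TGA triplet that is the only stop of its reading frame, at the β-endorphin end of the coding sequence. The *PCSK1* probe starts at base 253 of its design transcript. The *ASIP* probes start 374 bases apart, at 577 and 951, and share no stretch of 15 bases. A_70_P027461, the one nearer the transcript's 3′ end, is described by its values alone. No other probe on the array shares 15 bases in a row with any of the 5.

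Intensities below are log2 values after division by the 75th percentile of the same array, so 0 is that percentile and each unit doubles the intensity. Every member probe was well above background on 8 of 8 arrays. The scanner software's own error for these spots was between 10.0% and 12.5% of the intensity. For arrays, the number of fetuses limits the precision, here 4 per group. The treated arrays were brighter before scaling, with 75th percentiles of 1597 to 2282 in the treated and 981.5 to 1633 in the vehicle group. All 8 arrays lay on 1 slide with the treated arrays in 1 row and the vehicle arrays in the other, so slide row and treatment cannot be told apart. Nothing but the twin sets ties fetuses together in the labels, and p-values measure the spread between these fetuses.

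The main comparison asks which transcripts differ after the infusion. The *POMC* difference between the groups was about as large as its SD within them. *PCSK1* varied in a similar order over the fetuses, and *ASIP* was dimmer relative to the scaled array in treated fetuses at 1 of its 2 probes before correction for multiple testing. None of the 5 probes passed limma's test after Benjamini-Hochberg adjustment, at an adjusted p threshold of 0.05. The same held for the whole array, where 0 of 11749 probes tested (0%) passed. At an unadjusted p below 0.05, 733 probes (6.24%) were higher and 344 (2.93%) lower after estradiol sulfate, 1077 in all. Without vehicle replicate 2 the higher probes numbered 474, and without estradiol sulfate replicate 2 the lower ones numbered 178. The split turns with the scaling, to 345 higher and 753 lower when arrays are scaled to their median and 344 higher and 760 lower in the authors' deposited log2 values. Of the 5 member probes, 0 were among the higher and 1 among the lower. Groups did not overlap in 3.29% of all probes on the higher side and 2.68% on the lower side, and in 0 of the 5 member probes.

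**Figure D1:**
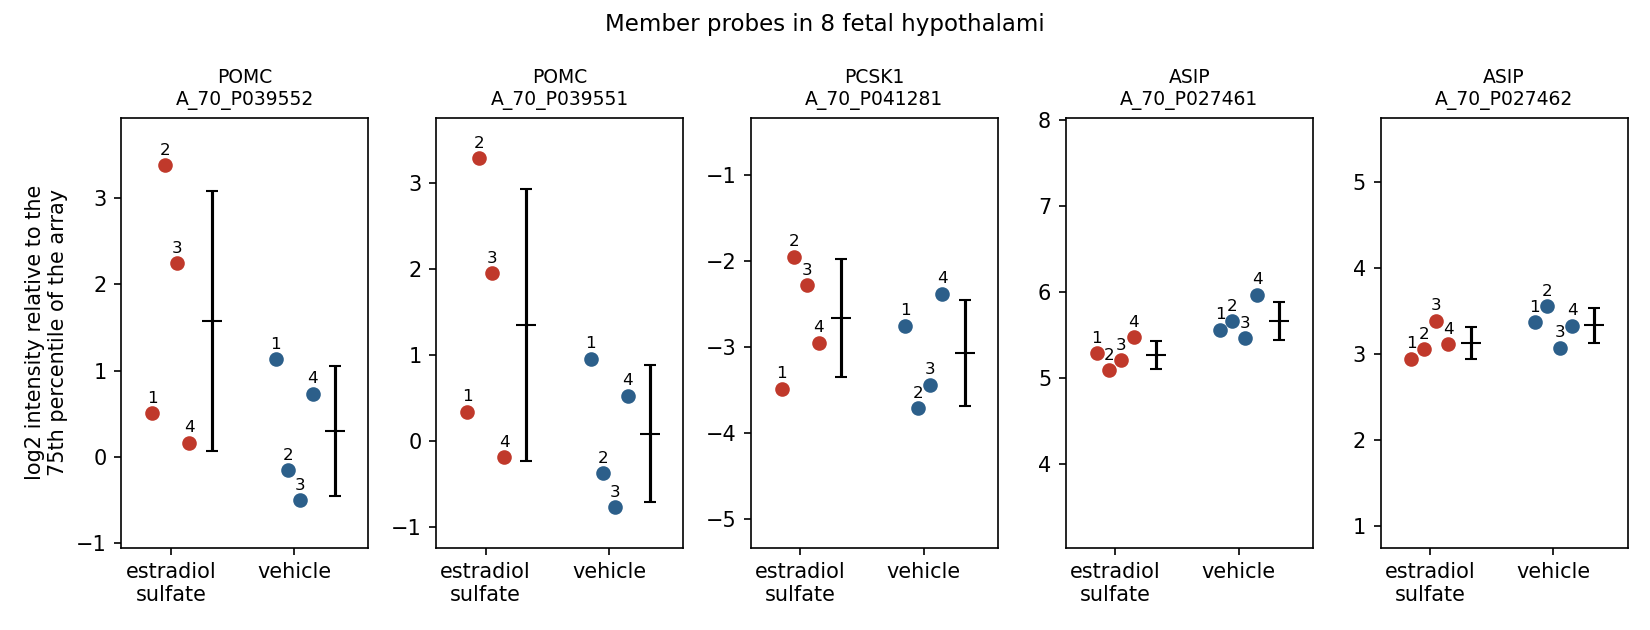
Log2 intensity relative to the 75th percentile of the array for each member probe, with 1 point per fetus numbered by replicate, and the mean with its SD (n = 4) as a black bar. All panels span 5 log2 units on different centres, and *POMC* is spread over 3.89 units at probe A_70_P039552 while the *ASIP* points at A_70_P027461 lie within 0.88.

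*POMC* was carried high by 2 treated fetuses. At probe A_70_P039552 the relative log2 intensity was 0.50, 3.39, 2.25 and 0.16 in estradiol sulfate replicates 1 to 4. In vehicle replicates 1 to 4 it was 1.13, -0.16, -0.51 and 0.73. Estradiol sulfate replicates 2 and 3 lay above every vehicle fetus, while replicates 1 and 4 lay inside the vehicle range. In unscaled intensity, the same spots read 2431, 21719, 10834 and 1788 in the treated fetuses and 3570, 1351, 929 and 1626 in the vehicle fetuses. The highest fetus was 14.9-fold above the lowest after scaling. The 4 treated fetuses alone spanned 9.36-fold and the 4 vehicle fetuses 3.11-fold.

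The *POMC* group means were 1.58 ± 1.51 (SD, n = 4) after estradiol sulfate and 0.30 ± 0.76 (SD, n = 4) in vehicle fetuses. The difference was 1.28 ± 0.69 (SE) on the log2 scale, a 2.42-fold higher mean with a 95% interval from 0.825-fold to 7.11-fold. In limma the unadjusted p was 0.0962 and the adjusted p 0.628. A two-sided exact permutation test over the 70 splits of the 8 fetuses gave p = 0.2, where 0.0286 is the smallest value that 4 against 4 fetuses allow. In size, 0.247% of the probes tested had a larger upward difference. In spread, the SD of *POMC* within groups, 1.20, was larger than that of 99.1% of probes, whose median was 0.23. Without estradiol sulfate replicate 2, the fetus with the most *POMC* signal, the difference was 0.67.

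The other *POMC* probe gave the same order of fetuses. Probe A_70_P039551 read 0.34, 3.29, 1.95 and -0.19 in the treated fetuses and 0.95, -0.38, -0.77 and 0.53 in the vehicle fetuses. Its difference was 1.26 ± 0.72 (SE), with an adjusted p of 0.649 in limma. Over the 8 arrays the gap between the probes had an SD of 0.08 log2 units, against SDs of 1.30 and 1.34 for the probes themselves. The fetus-to-fetus spread of *POMC* was therefore far larger than the spread between the 2 spots on an array. The labelled RNA of a fetus was the same for both spots, so this agreement does not measure sampling or labelling.

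*PCSK1* showed a smaller spread and the same high treated fetuses. At its probe, A_70_P041281, relative log2 intensity was -3.49, -1.95, -2.28 and -2.95 in estradiol sulfate replicates 1 to 4. In vehicle replicates 1 to 4 it was -2.75, -3.71, -3.44 and -2.38. Treated replicates 2 and 3 again lay above every vehicle fetus, and treated replicate 1 lay near the bottom of the vehicle range. The group means were -2.67 ± 0.69 and -3.07 ± 0.61 (SD, n = 4 each). The difference was 0.40 ± 0.38 (SE), 1.32-fold with a 95% interval from 0.727-fold to 2.41-fold. Limma's unadjusted p was 0.319 and its adjusted p 0.806, and the exact permutation p was 0.4. The SD within groups, 0.65, was larger than that of 94.6% of probes. The difference was 0.16 without estradiol sulfate replicate 2, 0.19 without vehicle replicate 2, 0.68 without estradiol sulfate replicate 1 and 0.63 without vehicle replicate 4.

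*ASIP* was steady from fetus to fetus. At the brighter probe, A_70_P027461, relative log2 intensity was 5.29, 5.09, 5.21 and 5.48 in estradiol sulfate replicates 1 to 4. The vehicle fetuses, in the same order, read 5.56, 5.66, 5.47 and 5.97. Of the treated fetuses, 3 lay below every vehicle fetus, and replicate 4 lay just above vehicle replicate 3. The means were 5.27 ± 0.16 and 5.66 ± 0.22 (SD, n = 4 each), a difference of -0.40 ± 0.14 (SE) with a 95% interval from -0.72 to -0.07. The vehicle mean was thus 1.32-fold higher. Limma's unadjusted p was 0.0222 and its adjusted p 0.502, and the exact permutation p was 0.0571.

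The *ASIP* difference was present in the scaled values and not in the unscaled ones. Unscaled intensity at A_70_P027461 was 67120, 70771, 84301 and 71279 in the treated fetuses and 77230, 76227, 58347 and 61473 in the vehicle fetuses. The treated mean of unscaled log2 intensity was 0.11 above the vehicle mean. Probes of different brightness did not shift alike between the groups. With probes cut into 5 equal classes of mean signal, from the dimmest to the brightest, the median difference was 0.20, 0.10, 0.06, 0.01 and -0.12, and both *ASIP* probes belong to the brightest class. Relative to the median of that class, the difference at A_70_P027461 was -0.28. Quantile normalization and cyclic loess, which remove trends with brightness, left -0.21 and -0.18, with unadjusted limma p-values of 0.0870 and 0.149. The part of this trend in the *ASIP* difference was not tested beyond these values. *POMC* differed by 1.31 under both of those normalizations.

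The second *ASIP* probe was less far from 0. A_70_P027462 read 2.94, 3.06, 3.39 and 3.11 in the treated fetuses and 3.37, 3.55, 3.07 and 3.33 in the vehicle fetuses. Only treated replicates 1 and 2 lay below every vehicle fetus, and treated replicate 3 lay above 3 of the 4 vehicle fetuses. The difference was -0.21 ± 0.15 (SE), with an unadjusted p of 0.190 and an adjusted p of 0.717 in limma. It was -0.06 with quantile normalization, -0.08 with cyclic loess and -0.13 without vehicle replicate 2. Unlike the *POMC* pair, the *ASIP* probes ranked the fetuses differently, with an r of 0.488 and a rho of 0.5 over 8 arrays as a description. The gap between them had an SD of 0.25, about as large as the SD of either probe over the arrays, 0.28 and 0.21.

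**Figure D2:**
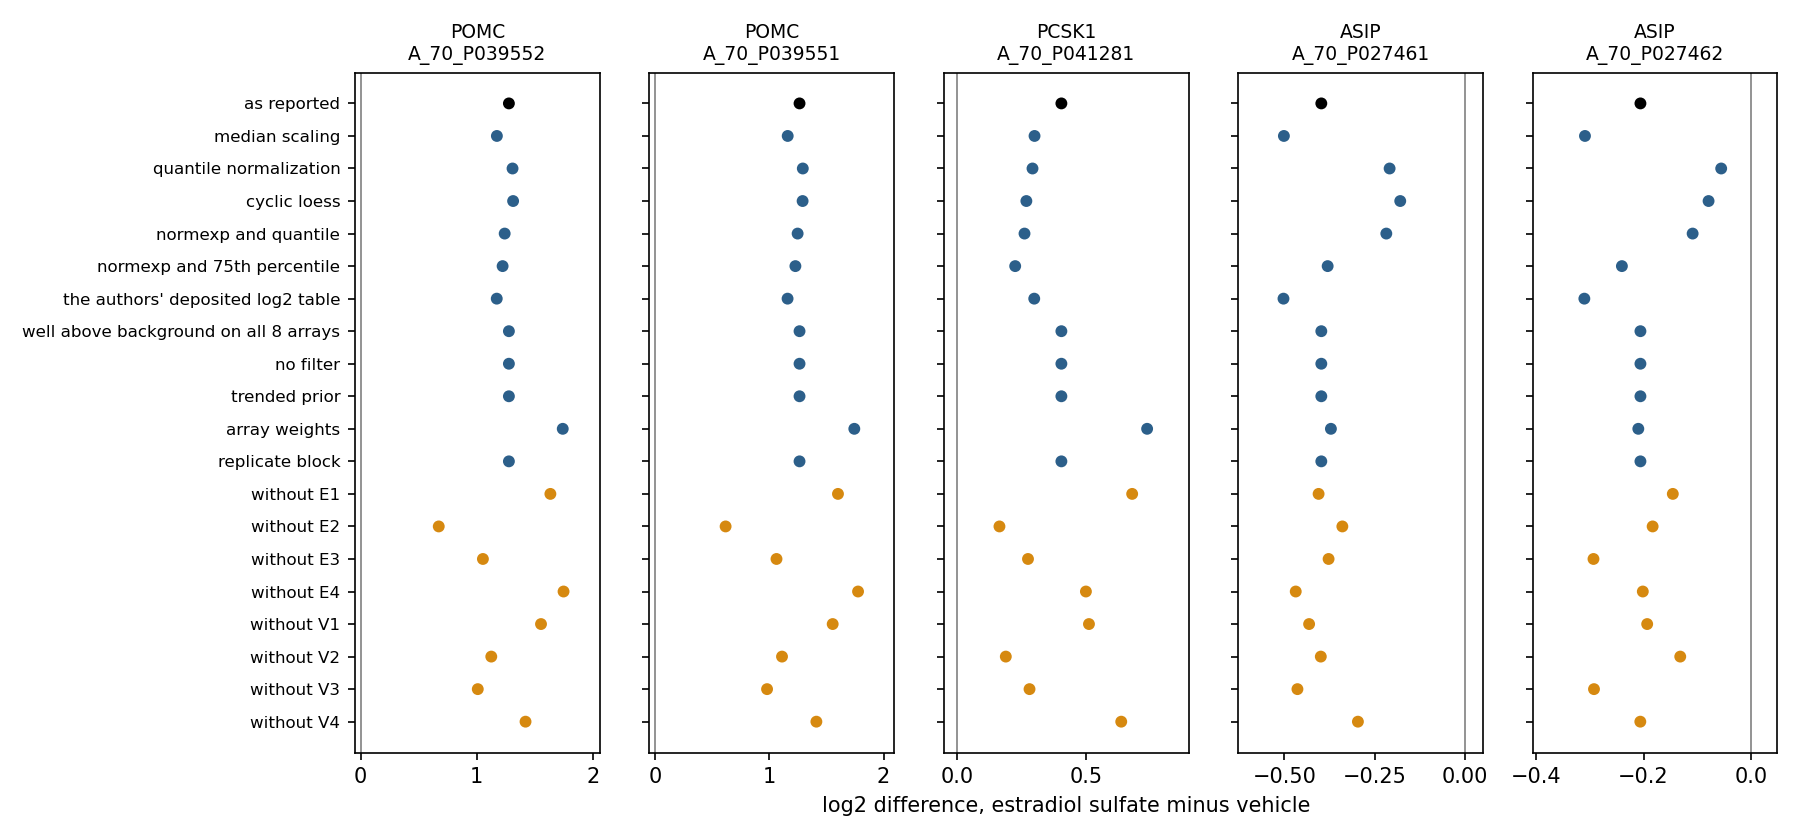
Log2 difference, estradiol sulfate minus vehicle, of each member probe as reported (black), under other processing (blue) and with 1 fetus left out (orange). E and V stand for estradiol sulfate and vehicle replicates, and each panel has its own axis that includes 0. At A_70_P039552 *POMC* ran from 0.67 to 1.75, and at A_70_P027461 *ASIP* ran from -0.50 to -0.18.

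*POMC* and *PCSK1*, precursor and convertase, followed each other across fetuses. Over 8 fetuses, Pearson's r was 0.860 with an exact permutation p of 0.00325, adjusted to 0.00975 over the 3 pairs of member genes. Spearman's rho was 0.857, with an exact permutation p of 0.0107, adjusted to 0.0321. Within the groups, r of the deviations from the group means was 0.852. Without the 2 fetuses farthest from the median of *POMC*, estradiol sulfate replicates 2 and 3, r was 0.691 over 6 fetuses with an exact permutation p of 0.140. The sign remained positive. With 6 fetuses and a narrower range of *POMC*, this p-value cannot show whether the relation rests on those 2 fetuses. The adjusted exact p was 0.0804 without estradiol sulfate replicate 2, where r was 0.792, and 0.0524 without vehicle replicate 3, where r was 0.838. *POMC* and *ASIP* gave an r of -0.589 and a rho of -0.452, with exact permutation p-values of 0.127 and 0.267 (adjusted 0.190 and 0.327). *PCSK1* and *ASIP* gave an r of -0.237 and a rho of -0.405, with exact permutation p-values of 0.577 and 0.327 (adjusted 0.577 and 0.327). Without the same 2 fetuses, r of *POMC* with *ASIP* was 0.237 over 6 fetuses. For *PCSK1* with *ASIP* it was 0.315 without estradiol sulfate replicate 2 and vehicle replicate 2, the fetuses farthest from the median of *PCSK1*. Neither negative sign held there. With only 1 fetus left out, r of *POMC* with *ASIP* stayed between -0.798 and -0.322. Co-twins share a dam and all values of an array share its scaling, so the 8 points are not fully independent.

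**Figure D3:**
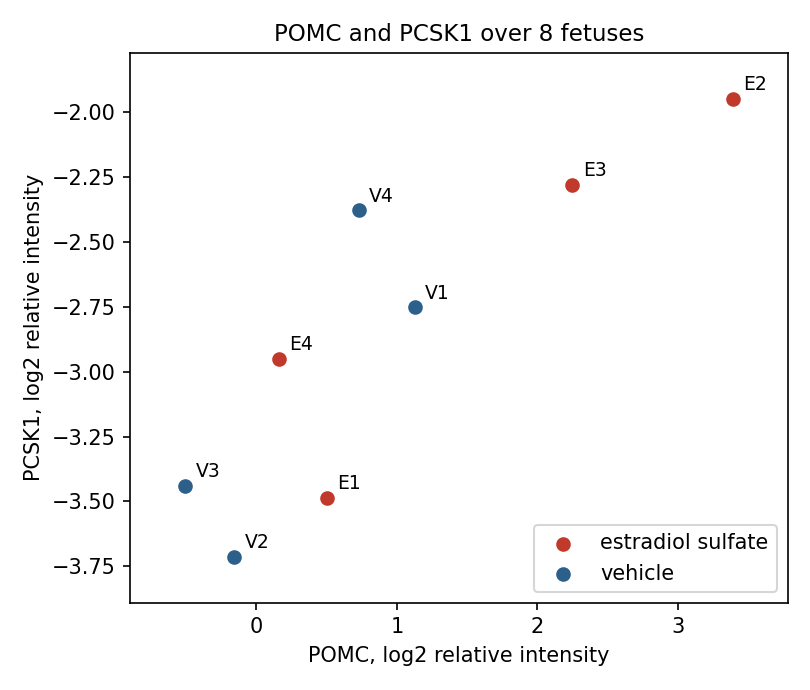
*POMC* (A_70_P039552) against *PCSK1* (A_70_P041281), both as log2 intensity relative to the 75th percentile of the array, 1 point per fetus labelled by group and replicate. Estradiol sulfate replicates 2 and 3 (E2 and E3) lie at the top right, and vehicle replicates 2 and 3 at the bottom left.

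Some other neuropeptide genes of the hypothalamus set the same fetuses apart, and some did not. Of 11 listed markers of hypothalamic neurons tested, *POMC* included, 7 lay above 0 and 4 below, with a median difference of 0.31. All probes tested had a median of 0.04, with 6832 above and 4917 below 0. The genes below were chosen for this description after their values were seen. *NPY*, which stimulates feeding, read 1.12, 2.39, 1.49 and 0.78 in the treated fetuses, in order of replicate, and 0.62, -0.83, -0.77 and 0.33 in the vehicle fetuses. *GHRH*, the hypothalamic releaser of growth hormone, read -3.35, 0.26, -0.51 and -3.35 against -2.84, -5.34, -5.54 and -3.53. Galanin (*GAL*), a peptide of many hypothalamic neurons, read -1.87, 0.91, 0.16 and -0.45 against -1.30, -1.48, -2.04 and -0.50. In *NPY*, *GHRH* and *GAL* alike, estradiol sulfate replicates 2 and 3 were the highest fetuses and vehicle replicates 2 and 3 were below every other vehicle fetus. *GHRH* was well above background in 4 treated and 2 vehicle fetuses. As a description over 8 arrays that share their scaling, r with *POMC* was 0.968 for *GHRH*, 0.886 for *NPY*, 0.852 for *GAL* and 0.830 for *AGRP*. The r of deviations from group means was 0.976, 0.905, 0.795 and 0.772 in the same order. Other markers ordered the fetuses differently, *SST* and *TAC3* only in part. Oxytocin (*OXT*) read 2.29, 1.29, 3.09 and 3.69 in the treated fetuses, lowest where *POMC* was highest, against 3.82, 3.09, 3.89 and 3.09. Somatostatin (*SST*) read 1.98, 4.21, 3.92 and 3.99 against 4.03, 3.52, 3.65 and 4.10. It was lowest in estradiol sulfate replicate 1. Like *POMC*, it was highest in estradiol sulfate replicate 2, and vehicle replicates 2 and 3 were its lowest vehicle fetuses. Neurokinin B (*TAC3*), an arcuate peptide, read -4.16, -2.04, -2.45 and -2.30 against -2.69, -4.28, -2.55 and -2.06. It was highest in estradiol sulfate replicate 2 and lowest in vehicle replicate 2, but estradiol sulfate replicate 3 was not among its highest fetuses. The RFamide peptide gene *NPVF* differed by -1.21 ± 0.49 (SE), with an unadjusted p of 0.0365 and an adjusted p of 0.536 in limma. Whether the dissected hypothalami held unequal amounts of arcuate tissue was not tested.

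Because the pituitary also makes *POMC*, pituitary markers were set beside these values. Of 19 listed markers the array named 11, and 7 were tested, with 5 above and 2 below 0 and a median difference of 0.52. That median was 0.04 over all probes tested, where 6832 lay above and 4917 below 0. The genes for growth hormone (*GH*), the FSH beta chain (*FSHB*), the pituitary factor *POU1F1* and the receptor *GNRHR* were well above background on no array. The summed linear level of the markers ran from 18.3 to 28.3 in treated and from 15.7 to 30.2 in vehicle fetuses, in units of the 75th percentile. One probe for the LH beta chain (*LHB*) made up most of it, and its r with *POMC* was -0.543. A second *LHB* probe read only -3.27 to -2.66. The glycoprotein hormone alpha chain (*CGA*), made by the pars tuberalis as well, read -4.55, -0.12, -2.63 and 0.55 in treated and -2.83, -5.38, -5.46 and -0.34 in vehicle fetuses, of which 2 were well above background. The TSH beta chain (*TSHB*) read -8.12, -2.41, -4.35 and -1.84 against -5.00, -7.52, -7.49 and -2.82, with 3 treated and 2 vehicle fetuses well above background. *CGA* and *TSHB* were thus highest in estradiol sulfate replicate 4, whose *POMC* lay inside the vehicle range. Their r over 8 arrays was 0.503 and 0.524 with *POMC* and 0.762 and 0.804 with *PCSK1*. Prolactin (*PRL*) had an r of -0.095 with *POMC* and 0.341 with *PCSK1*, and *LHB* had an r of -0.658 with *PCSK1*. The TRH receptor *TRHR*, on this list too, read -4.43, -2.73, -3.30 and -4.18 in treated and -4.13, -4.97, -4.89 and -3.06 in vehicle fetuses. Its r with *PCSK1* was 0.964. The listed pituitary factor *TBX19* was not named on the array. The part of tissue expressing *CGA*, *TSHB* or *TRHR* in the *PCSK1* values was not tested.

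**Figure D4:**
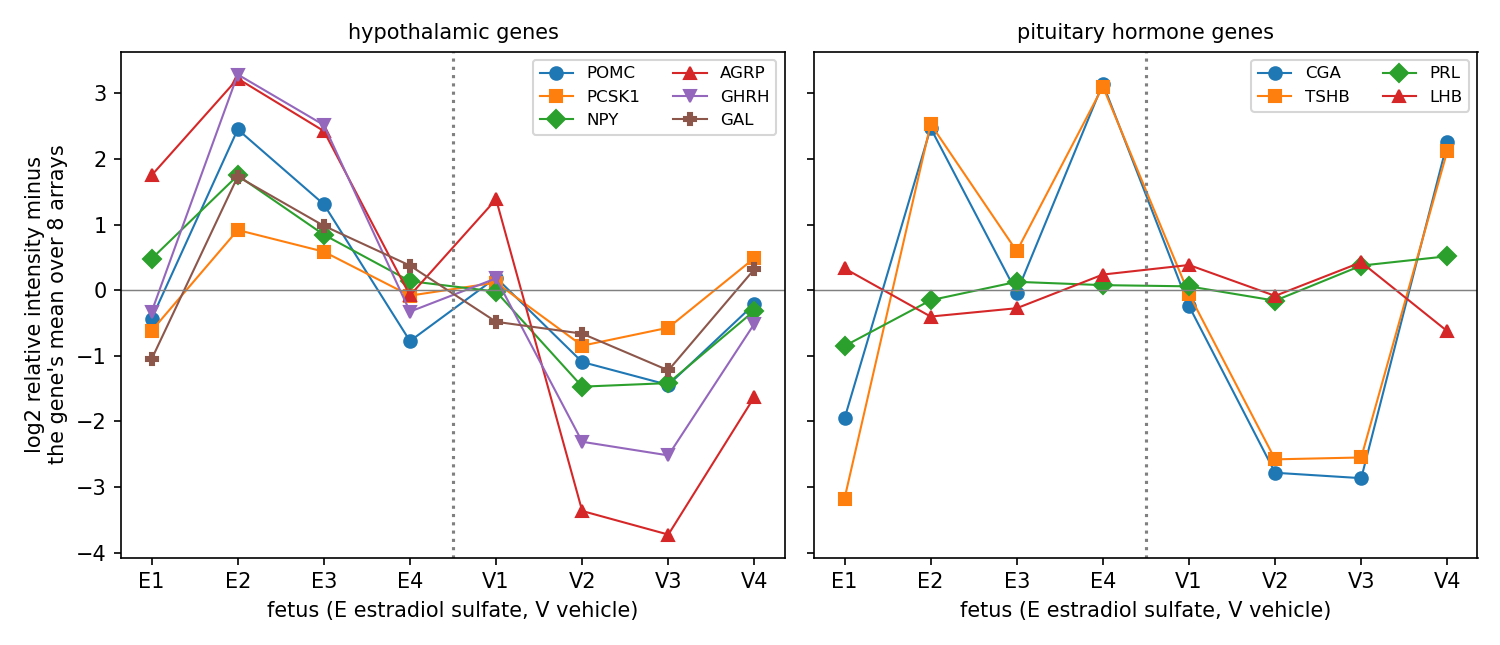
Log2 intensity relative to the 75th percentile of the array, minus the mean of each gene over 8 arrays, for fetuses E1 to E4 (estradiol sulfate) and V1 to V4 (vehicle), with lines joining points for the eye only. *POMC* and the hypothalamic genes on the left peak in E2, while *CGA* and *TSHB* on the right peak in E4.

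Markers of the labelled tissue were present. Of 23 listed markers of hypothalamic neurons the array named 11, and all 11 were tested, among them *OXT*, *SST*, *GHRH* and *NPY*. Transthyretin (*TTR*) and *AQP1* were the choroid plexus markers on the array, and the *AQP1* probe used was well above background on no array. Their summed level was 0.124 to 6.31 times the 75th percentile in treated fetuses and 0.543 to 0.784 times in vehicle fetuses. The highest *TTR* was in estradiol sulfate replicate 4 and the lowest in replicate 1, both inside the vehicle range of *POMC*. The summed level of the 5 endothelial markers on the array was 1.10 to 2.01 times the 75th percentile in treated and 0.864 to 1.05 times in vehicle fetuses. *PECAM1* and *EDN1* were the brightest of them. All 4 tested lay above 0, with a median of 0.59 against 0.04 over all probes tested. *EDN1* and *FLT1* had an unadjusted limma p below 0.05, as had 6.24% of all probes on the higher side. The sizes of the differences were unequal. *EDN1* differed by 0.87 ± 0.32 (SE), *PECAM1* by 0.21 ± 0.16 (SE) and *KDR* by 0.32 ± 0.32 (SE). *FLT1* was well above background in 4 treated and 0 vehicle fetuses at the probe used, and *TEK* was not tested. The part of endothelial markers in the member differences was not tested. Summed markers of astrocytes and tanycytes (71.2 to 94.2 against 60.0 to 90.7), of microglia and leukocytes (1.16 to 1.74 against 1.48 to 2.24), of meninges (1.70 to 5.53 against 1.97 to 4.18) and of blood (3.42 to 14.8 against 3.17 to 11.6) overlapped between the groups. No oligodendrocyte marker of the list was named on the array.

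Beside *POMC* and *ASIP*, the list of melanocortin ligands and antagonists held *AGRP* and *PMCH*, and *AGRP* had the larger difference. *AGRP* encodes agouti-related protein, made by arcuate neurons that oppose those with *POMC*. It read -0.20, 1.28, 0.48 and -2.03 in the treated fetuses and -0.56, -5.31, -5.67 and -3.57 in the vehicle fetuses, of which 2 were well above background. Treated replicates 1, 2 and 3 lay above every vehicle fetus. The fitted difference was 3.66 ± 1.10 (SE), with an unadjusted p of 0.00861 and an adjusted p of 0.437 in limma. Its size is set in part by background in the other 2 vehicle fetuses, and it was 2.56 with normexp background correction and 75th percentile scaling. Melanin-concentrating hormone (*PMCH*), listed for opposing α-MSH in feeding and in fish skin colour and not as a ligand of melanocortin receptors, differed by 0.31 ± 0.49 (SE). The list's 4 genes include the members *POMC* and *ASIP*, so its counts are no separate evidence on them. Of the 4, 3 lay above 0 and 1, *ASIP*, below, with a median difference of 0.79. Over all probes tested the median was 0.04, with 6832 above and 4917 below 0. None of the 4 genes passed after adjustment, and 1 in each direction, *AGRP* above and *ASIP* below 0, had an unadjusted limma p below 0.05.

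Genes that process the precursor were thinly covered. Of 20 listed, 4 were on the array and 3 were tested, the member *PCSK1* among them, all above 0 with a median of 0.28. Among all probes tested, 6832 lay above and 4917 below 0, with a median of 0.04. Carboxypeptidase E (*CPE*), which trims the basic residues left by the convertases, differed by 0.23 ± 0.18 (SE) with an adjusted p of 0.749. Glutaminyl cyclase (*QPCT*), which modifies the N-terminus of some peptides, differed by 0.28 ± 0.12 (SE) with an unadjusted p of 0.0471 and an adjusted p of 0.543. *FURIN*, a convertase of the constitutive pathway, was well above background on no array.

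Of 13 listed melanocortin receptors and partners, the array named *MC2R*, the ACTH receptor of the adrenal cortex, and *MC5R*, a receptor of exocrine glands in mice. Neither was well above background on any array, so neither was tested. Of the receptors for opioid products, *OPRM1*, the µ receptor for β-endorphin, read -2.67, -2.78, -2.89 and -2.79 in treated and -3.02, -3.31, -2.94 and -2.97 in vehicle fetuses. All 4 treated fetuses lay above every vehicle fetus by small margins at this probe. The difference was 0.28 ± 0.12 (SE) with an unadjusted p of 0.0493 and an adjusted p of 0.545, and at the second probe 3 of 4 treated fetuses lay above every vehicle fetus. The *OPRM1* difference was 0.17 with median scaling, 0.14 with cyclic loess and 0.07 with normexp and 75th percentile scaling, where the unadjusted p was 0.603. The κ receptor *OPRK1* differed by 0.10 ± 0.13 (SE), a value that fell just below 0 with median scaling, with normexp and 75th percentile scaling and in the deposited log2 values. The proenkephalin gene *PENK*, another opioid precursor, was well above background on no array.

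Of 26 listed regulators of *POMC* neurons, 12 were on the array and 8 were tested, all above 0 at the brightest probe of each gene, with a median difference of 0.16. Over all probes tested the median was 0.04, and it was 0.20 in the dimmest and 0.10 in the next of the 5 brightness classes. *NPY1R* at 0.02, *LEP* at 0.03 and *ESR1* at 0.07 lay close to 0. *NPY* differed by 1.61 ± 0.42 (SE), with an adjusted p of 0.427 and all 4 treated fetuses above every vehicle fetus at its brighter probe. Estrogen receptor beta (*ESR2*) differed by 0.42 ± 0.17 (SE) and the CRH receptor *CRHR1* by 0.42 ± 0.27 (SE), with adjusted p-values of 0.536 and 0.688. Both turned to the other side of 0, at -0.03 and -0.25, with normexp background correction and 75th percentile scaling, and *CRHR1* was 0.13 without vehicle replicate 4. The 2 probes of estrogen receptor alpha (*ESR1*) disagreed in sign, with 0.07 ± 0.47 (SE) at the brighter and -0.49 ± 0.34 (SE) at the dimmer one, and the brighter one turned to -0.03 with median scaling. The receptors *LEPR*, *NPY2R* and *GHSR*, for leptin, NPY and ghrelin, and the glucocorticoid receptor *NR3C1* were not tested, since they were well above background on fewer than 4 arrays. Of 21 listed factors that control *POMC* transcription or arcuate cell fate, 8 were on the array and 7 tested, 6 above 0 and 1 below, with a median of 0.14. *JUNB* differed by 0.32 ± 0.14 (SE) and *FOS* by 0.28 ± 0.16 (SE), both immediate early genes. *NEUROD1*, a neurogenic factor that also drives *POMC* in corticotrophs, differed by -0.66 ± 0.36 (SE), and by -0.30 without vehicle replicate 3. Their adjusted p-values were 0.545, 0.648 and 0.628. *FOS* had 4 probes, of which 1 dim one had a difference of -0.23.

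**Figure D5:**
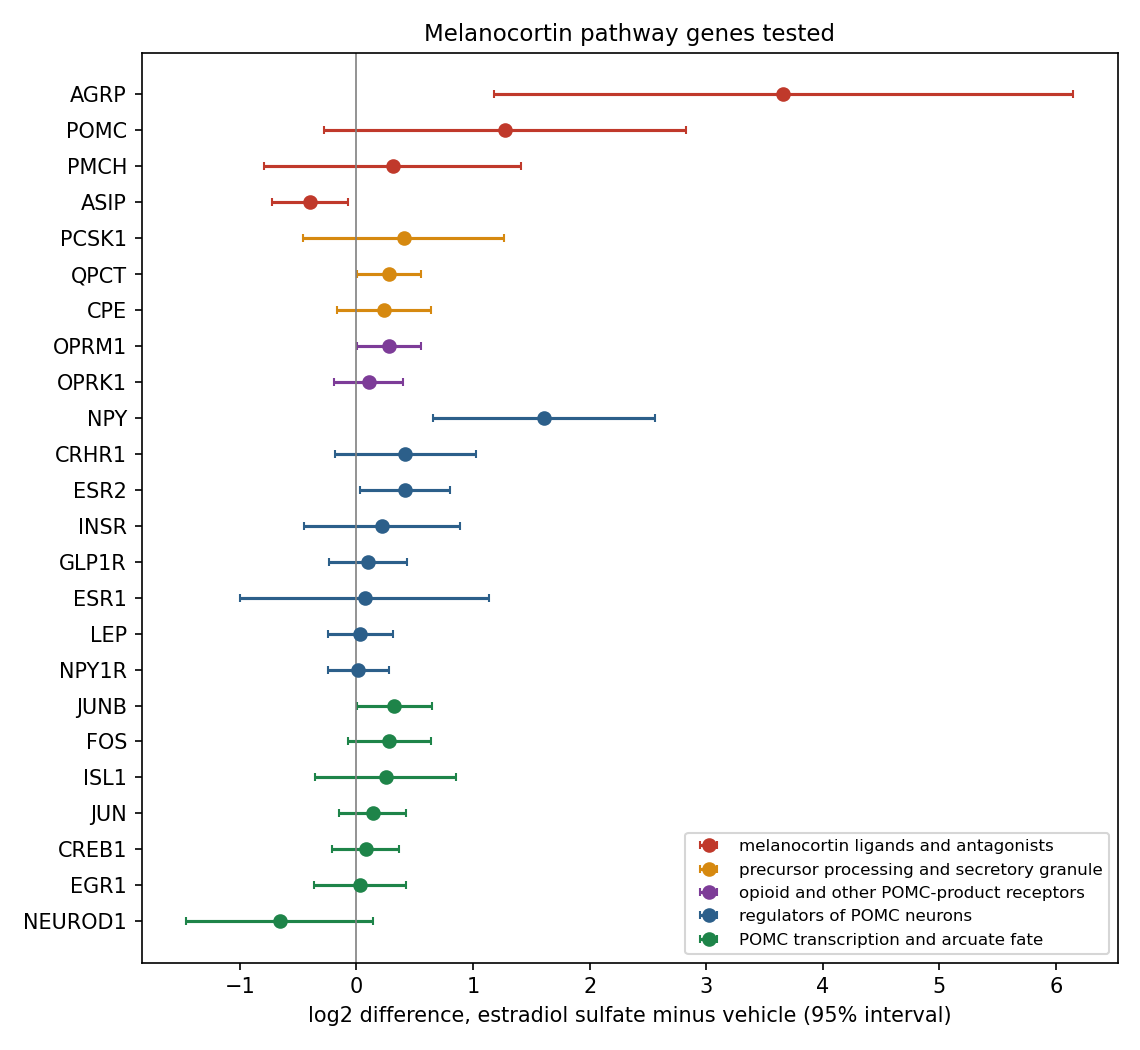
Log2 difference, estradiol sulfate minus vehicle, with its 95% interval from limma, for each tested gene of 5 lists around *POMC*, 1 probe per gene. *AGRP* at 3.66, *NPY* at 1.61 and *POMC* at 1.28 lie farthest to the right, and *NEUROD1* at -0.66 and *ASIP* at -0.40 farthest to the left.

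Pigment genes, the partners of *ASIP* in skin, were listed to describe what the array holds. Of 14, the array named 4 and 3 were tested, all above 0 at the brightest probe of each gene, with a median of 0.12 and none with an unadjusted p below 0.05. For comparison, the median was 0.04 over all probes tested, with 6832 above and 4917 below 0. It was 0.20 and 0.10 in the dimmest and next brightness classes. A dimmer probe of *KITLG* disagreed in sign, at -0.75 ± 0.68 (SE). Of the 7 listed neighbours of *ASIP* in the sheep genome, 0 were named on the array, so a shared signal over the agouti region was not analysed here.

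Among 631 named genes well above background on all arrays, those closest to each member over the 8 arrays were listed by Pearson's r, as a description of arrays that share their scaling. Closest to *POMC* were *NAMPT* (0.976), an enzyme of NAD synthesis, *NPY* (0.886), the growth factor *NRG1* (0.876), *DKC1* (0.867), which modifies ribosomal RNA, and *PCSK1* (0.860). Closest to *PCSK1* were *TRHR* (0.964), the TRH receptor listed above with the pituitary markers, the homeobox gene *BARX2* (0.935), *IGF2* (0.902), *NRG1* (0.900) and *GAL* (0.894). Closest to *ASIP* were *LGALS15* (0.960), *PPIA* (0.929), *GRINA* (0.926), *RPL6* (0.921) and *FCER1G* (0.913). These sets depend on the processing and on single fetuses. With quantile normalization or cyclic loess, 0 of the 5 kept a place among the closest 5 for *ASIP* and 3 for *POMC* and *PCSK1*. For *POMC*, 2 of the 5 kept it under both normexp settings, and 1 without estradiol sulfate replicate 2 or without vehicle replicate 3. For *PCSK1*, 2 kept it without estradiol sulfate replicate 2.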

How the data were processed

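Total RNA of 8 fetal sheep hypothalami was labelled with Cy3 and hybridised to 1 array each, per the labels' protocols. Agilent Feature Extraction 10.1.1.1 gave 1 spot intensity per feature, per the file headers. In the deposited files this processed intensity has background subtraction and detrending within an array but no normalization between arrays. A deposited table of log2 values served only as an alternative. It equals log2 of the processed intensity less 1 constant per array, and the sources used here do not give the rule for that constant.

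Control spots and outlier-flagged spots were dropped, replicate spots averaged, and log2 intensity set against the array's own 75th percentile. Probes well above background on at least 4 of 8 arrays were tested (11749 kept, 3259 removed) in limma 3.58.1 under R 4.3.3, with functions lmFit and eBayes and a model of group alone. P-values were two-sided and adjusted by Benjamini-Hochberg over all probes, with a threshold of 0.05. Exact permutation tests went through every split or pairing in Python 3.11.15, with ranks from scipy 1.17.1. The fit was tested on simulated data. No spot was saturated, and within-group correlations between arrays ran from 0.9723 to 0.9911.

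Names came from the array design, updated through the RefSeq gene table of ARS-UI_Ramb_v3.0 (1565 probes, 965 genes). That table was used for names and neighbours alone. For a gene with several probes, the one with the highest mean signal stands for it. The members, the 18 gene lists and the alternatives were chosen with earlier results of these data known. The rule for named genes takes all probes of the members, every named ligand, processing and receptor gene, 2 to 4 genes of each other list by unadjusted p or, for cell type lists, by brightness, and the 5 genes closest to each member. *GHRH*, *TAC3*, *NPVF*, *ESR1*, the *TSHB*, *CGA* and *TRHR* values by fetus and the genes named as below background were added after their values were seen. Lists of other cell types not described in the text gave no gene past the adjusted threshold, which no probe on the array passed. Of 13 listed general neuron markers 1 was tested, *NEFH*, with a difference of -0.23 ± 0.26 (SE). Alternatives were other scalings, background corrections, filters, priors and array weights, the replicate number as a block, and leaving out each array.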

Additional observations from a re-analysis of the deposited data

How the results depend on the processing

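No member probe changed direction, and 0 probes passed the adjusted threshold, under any of the 11 other settings or without any single array. Leaving out 1 array at a time, the differences ran from 0.67 to 1.75 (A_70_P039552) and 0.62 to 1.78 (A_70_P039551) for *POMC*, 0.16 to 0.68 for *PCSK1*, and -0.47 to -0.30 (A_70_P027461) and -0.29 to -0.13 (A_70_P027462) for *ASIP*. Under the other settings they ran from 1.17 to 1.74, 1.16 to 1.74, 0.23 to 0.73, -0.50 to -0.18 and -0.31 to -0.06 in the same order, where the values of 1.74, 1.74 and 0.73 came with array weights. The r of *POMC* with *PCSK1* was 0.756 (adjusted exact p 0.0788) with normexp and 75th percentile scaling and ran from 0.792 to 0.927 with 1 array left out. The r of *POMC* with *ASIP* ran from -0.798, without vehicle replicate 4 (adjusted exact p 0.0470), to -0.322, and that of *PCSK1* with *ASIP* from -0.717 to 0.115, the last without estradiol sulfate replicate 2. The cause of these shifts was not tested.

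Higher probes at an unadjusted p below 0.05, 733 as reported, numbered 345 with median scaling, 396 with quantile normalization, 448 with cyclic loess, 417 with normexp and quantile, 209 with normexp and 75th percentile scaling, 344 in the deposited log2 values, 477 with probes well above background on all arrays, 1147 with array weights and 474 without vehicle replicate 2. Lower probes, 344 as reported, numbered 753 with median scaling, 816 with normexp and 75th percentile scaling, 760 in the deposited values, 1185 with no filter and 178 without estradiol sulfate replicate 2. Median scaling, the deposited values and normexp with 75th percentile scaling move the median difference of all probes by -0.10, -0.10 and -0.12. *OPRK1* turned to -0.00028 with median scaling, -0.0014 with normexp and 75th percentile scaling and -0.0014 in the deposited values, and *ESR2* (-0.033) and *CRHR1* (-0.25) turned with normexp and 75th percentile scaling. *TAC3*, 0.16 as reported, turned to -0.016 with the latter and ran from -0.30 (without vehicle replicate 2) to 0.63 with 1 array left out, -0.076 without estradiol sulfate replicate 2. *SST*, -0.30 as reported, ran from -0.53 (without estradiol sulfate replicate 2) to 0.22 (without estradiol sulfate replicate 1). *ESR1* turned to -0.034 with median scaling, -0.036 in the deposited values and -0.37 with array weights, and ran from -0.37 to 0.40 with 1 array left out, below 0 without estradiol sulfate replicate 1 (-0.023) or 3 (-0.023) or vehicle replicate 2 (-0.071) or 4 (-0.37). Under the other settings *PMCH* ran from 0.02 to 0.72, *CPE* from 0.13 to 0.39, *QPCT* from 0.17 to 0.28, *JUNB* from 0.13 to 0.32 and *FOS* from 0.18 to 0.29.

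With the replicate number as a replicate block, the differences stayed at 1.28, 1.26, 0.40, -0.40 and -0.21, with 804 higher and 354 lower probes at an unadjusted p below 0.05 and none past the adjusted threshold. The labels do not say that a number marks co-twins, and the deviations of same-numbered fetuses correlated at 0.236, -0.014, 0.191 and 0.247, of which 3 of 4 are above 0.1. The 12 other pairings ran from -0.355 to 0.210, 9 of them below 0, and 6 of 8 fetuses correlated best with their own number. Deviations from a group mean sum to 0, so positive same-number values push the other pairings below 0, and that count is no separate evidence. Same-numbered arrays also lay in the same column of the slide. Shared twin set and shared slide column therefore cannot be told apart in the same-number values, and the numbers were not taken as pairs. With 4 fetuses per group, the *POMC* interval spans both a lower and a several-fold higher mean.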
